A study of Mus musculus with 6 samples.

Results

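The genes described here are 9 components of the JAK2, STAT5 and SOCS signalling that carries the GM-CSF signal: the kinase gene Jak2, the transcription factor genes Stat5a, Stat5b and Stat3, the feedback inhibitor genes Cish, Socs1, Socs2 and Socs3, and the kinase gene Pim1. They were chosen by name as parts of the pathway, with earlier results of these data known. Each is read from a probe set that carries its symbol alone, and the brighter one was used for Socs2 and Socs3, which have several. All 9 were measured, among 19938 genes with such a probe set on 6 Affymetrix Mouse Gene arrays. The arrays hold a dendritic population (3 replicates) and a macrophage population (3 replicates), both unstimulated. Both were grown from bone marrow of C57B/6 mice in 20 ng/ml recombinant GM-CSF (granulocyte-macrophage colony-stimulating factor) for 6 days, so the cytokine is common to both populations and no cells without it were analysed here. The labels used here name neither the method that separated the populations nor the source of each replicate (mouse or culture). The p-values therefore rest on the spread between arrays, and this may be technical.

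GM-CSF binds a receptor of a specific alpha chain and the common beta chain, and the beta chain holds the kinase JAK2. Activated JAK2 phosphorylates the receptor and the latent transcription factors STAT5A and STAT5B, which pair, enter the nucleus and switch on target genes. Among these targets are CISH and the SOCS proteins, which bind the receptor or the kinase and dampen the signal, and the survival kinase PIM1. STAT3 is the related factor used mainly by the receptors of the interleukin-6 and interleukin-10 families, and SOCS3 is its best known feedback inhibitor.

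STAT5 and STAT3 dimers bind DNA at the palindrome TTCNNNGAA, where N is any base, and mouse Cish is a textbook gene with such sites at its promoter. The windows of the 9 genes were searched for it from 250 bases before to 30 bases after each RefSeq start (build GRCm38.p6). The motif is its own reverse complement, so the search reads both strands, and no other motif was searched. Windows were at hand for 8 genes (11 windows, since some genes have several starts), all except Socs2. The motif stood in the windows of 2 genes, Cish and Socs3, and in 7.83% of all 32851 windows of this length. These 2 sequences are shown because they hold the motif, which is in capitals. The windows of Socs1 and Pim1, also named above as targets, held no match. The Cish window lies at chr9:107296409-107296688 on the plus strand, and the Socs3 window at chr11:117969337-117969616 on the minus strand.
Cish: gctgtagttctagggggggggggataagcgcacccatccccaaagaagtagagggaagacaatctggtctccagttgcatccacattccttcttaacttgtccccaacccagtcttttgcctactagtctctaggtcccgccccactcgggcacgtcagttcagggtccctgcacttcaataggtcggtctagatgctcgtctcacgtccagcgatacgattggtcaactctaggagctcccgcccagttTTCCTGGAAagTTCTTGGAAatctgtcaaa
Socs3: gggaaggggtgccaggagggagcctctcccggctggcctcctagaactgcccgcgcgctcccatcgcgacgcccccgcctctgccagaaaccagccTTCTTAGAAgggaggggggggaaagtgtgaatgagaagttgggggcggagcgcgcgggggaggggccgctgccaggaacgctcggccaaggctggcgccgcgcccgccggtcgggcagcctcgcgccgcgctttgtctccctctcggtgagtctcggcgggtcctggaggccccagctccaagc
In Cish the motif occurs 2 times, as TTCCTGGAA beginning at base 1 of the transcript and TTCTTGGAA beginning at base 12. Only 0.408% of all windows hold 2 or more matches. In Socs3 a single match, TTCTTAGAA, begins 154 bases before the start. A match is a description of these letters and not a measured binding site, and a window without one says nothing about sites elsewhere.

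Values are the deposited log2 values, and each difference, ± SE from limma, is dendritic minus macrophage in log2 units. A gene was called where its Benjamini-Hochberg adjusted p over all 19938 genes was under 0.05. The markers listed for the dendritic and macrophage cell types mostly followed the labels. Of 10 dendritic cell markers 7 were called higher and none lower in the dendritic population, with list means of 7.97 to 8.02 on dendritic and 5.11 to 5.68 on macrophage arrays. Xcr1 and Itgae, markers of a conventional dendritic subset, lay between 3.45 and 4.97 on all arrays, near or below the array medians of 4.79 to 4.96. Cd24a, also not called, was bright in both populations. It had 10.00, 9.58 and 9.83 on the dendritic arrays, against 7.97, 9.67 and 9.53 on the macrophage arrays (0.75 ± 0.39, adjusted p = 0.255). All 9 macrophage markers measured were called lower, with list means of 5.11 to 5.22 on dendritic and 9.83 to 10.20 on macrophage arrays. Replicate 1 of both populations stood apart by its neutrophil markers. The resistin-like gene Retnlg had 7.43, 4.33 and 4.32 on the dendritic arrays 1, 2 and 3, against 7.39, 4.31 and 4.25 on the macrophage arrays. Of 12 neutrophil markers 8 were highest on replicate 1 in both populations, as were 17.3% of all genes. The mean of the neutrophil list was 6.91, 6.24 and 6.02 on the dendritic arrays and 7.10, 5.99 and 6.12 on the macrophage arrays. Its members were not called between the populations except Mpo, which was lower in the dendritic population (-0.74 ± 0.19, adjusted p = 0.0207). The means of the B cell, T and NK cell, erythroid, mast cell and stromal lists lay between 3.50 and 4.86 on every array, and Cd79a was the one member called (0.81 ± 0.19, adjusted p = 0.0129). Some members of these lists lay above the array medians on every array, such as Prss34 (5.06 to 6.42), Gata2 (5.06 to 6.17), Cd79b (5.04 to 6.02) and Col1a1 (5.35 to 5.96).

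Most of the pathway genes were higher in the dendritic population. Of the 9 genes 6 were called higher (Jak2, Socs2, Stat3, Stat5a, Socs1 and Pim1), none was called lower, and Stat5b, Cish and Socs3 were not called. Among all genes tested 9.98% were called higher and 11.6% lower. These shares include dim genes, while every value of the 9 genes was at least 5.54, above the array medians of 4.79 to 4.96. With only genes above the median level tested, 1840 genes were called higher and 2207 lower, beside 1990 and 2322 of all genes. The shares among genes of such level are therefore larger than those over all genes. The difference reached 2-fold for 3 of the 9 (Jak2, Socs2 and Stat3), as it did, higher and called, for 4.47% of all genes. The median difference of the 9 genes was 0.73, beside 0.034 for all genes. The dendritic values lay wholly above the macrophage values for the same 6 genes, and for 17.3% of all genes. The count was 4 when any of dendritic replicates 2 and 3 and macrophage replicates 1 and 3 was left out, or when all probe sets were tested. It was 5 after renewed quantile normalization, and 7 with a replicate block or array weights. Without both replicates numbered 1, which is an alternative added once the values had been seen, it was 6. In bulk samples, more cells that express a gene and more RNA per cell cannot be told apart.

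**Figure D1:**
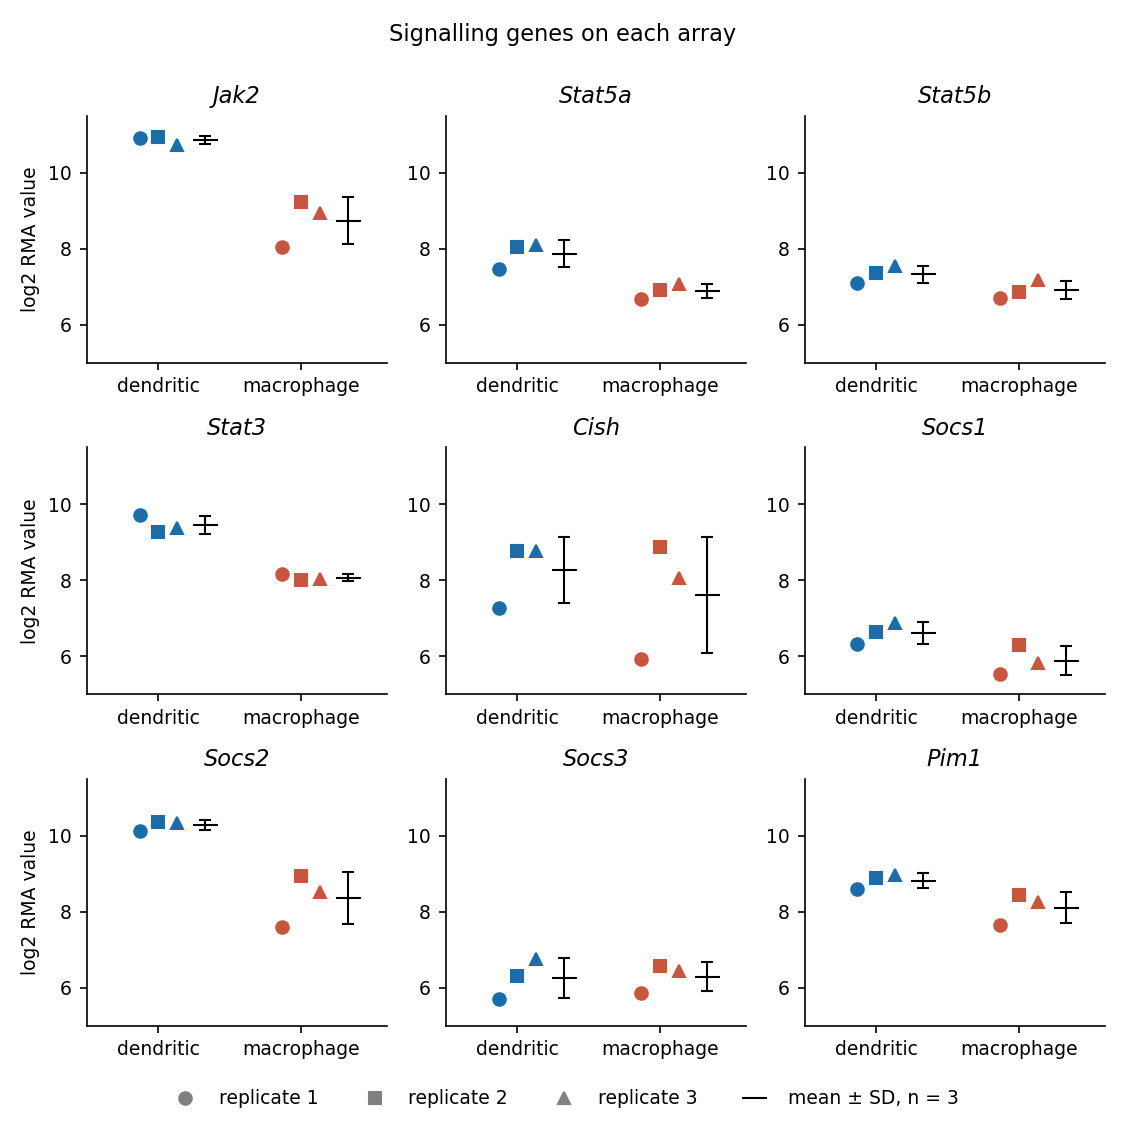
Log2 RMA values (y axis, the same scale in every panel) of the 9 genes on each of the 6 arrays, with dendritic arrays on the left and macrophage arrays on the right. Marker shape gives the replicate number, and the bar is the mean ± SD of 3 arrays. Jak2, Socs2 and Stat3 separate the populations most widely, while the Cish and Socs3 values overlap and replicate 1 lies lowest in both populations in 7 of the 9 panels.

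Jak2, the kinase at the head of the pathway, had the largest difference of the 9 genes. Its values (probe set 10462363) were 10.91, 10.93 and 10.74 on the dendritic arrays, against 8.06, 9.23 and 8.95 on the macrophage arrays. The dendritic arrays were tightly grouped and the macrophage arrays spread more, with replicate 1 the lowest. Means were 10.86 ± 0.11 in the dendritic and 8.74 ± 0.61 in the macrophage population (SD, n = 3 each), a difference of 2.12 ± 0.27 or 4.34-fold (adjusted p = 0.000421). Without both replicates numbered 1 the difference was 1.75 (adjusted p = 6.45e-05).

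Among the transcription factors, Stat3 differed most. It had 9.73, 9.28 and 9.37 on the dendritic arrays (probe set 10391301), against 8.17, 7.998 and 8.05 on the macrophage arrays. No dendritic array came within 1 log2 unit of a macrophage array. The difference was 1.39 ± 0.15, or 2.62-fold (adjusted p = 0.000166). Stat3 is 1 of only 2 of these genes, with Jak2, in which dendritic replicate 1 was not the lowest dendritic array.

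Stat5a and Stat5b encode near-identical factors that GM-CSF activates together, and with Stat3 they are the only 3 protein-coding genes in their stretch of chromosome 11 in the RefSeq table. Stat5a (probe set 10381172) had 7.47, 8.06 and 8.10 on the dendritic arrays, against 6.69, 6.91 and 7.07 on the macrophage arrays. Its dendritic values were all higher, by 0.99 ± 0.19 or 1.98-fold (adjusted p = 0.00538). Stat5b (probe set 10391286) had 7.09, 7.35 and 7.55 on the dendritic arrays, against 6.70, 6.88 and 7.18 on the macrophage arrays. The lowest dendritic value of Stat5b lay below the highest macrophage value, and the difference of 0.41 ± 0.17 was not called (adjusted p = 0.142, 95% interval 0.021 to 0.80). With the replicate number as a block Stat5b was called (adjusted p = 0.0296; 0.0186 to 0.395 over 16 alternatives). How far the probes of the 2 genes tell their transcripts apart was not tested.

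Among the SOCS-family genes Socs2 and Socs1 were called and Cish and Socs3 were not. Socs2, known in mice as a brake on growth hormone signalling and a target of STAT5, had the second largest difference of the 9. Its brighter probe set (10394674) had 10.14, 10.37 and 10.35 on the dendritic arrays, against 7.60, 8.95 and 8.52 on the macrophage arrays. As for Jak2, macrophage replicate 1 was the lowest array and the dendritic arrays lay close together. The difference was 1.93 ± 0.29, or 3.81-fold (adjusted p = 0.00138). The other Socs2 probe set (10372069) had 8.47, 8.64 and 8.63 on the dendritic arrays, against 6.26, 7.08 and 6.95 on the macrophage arrays. It gave a difference of 1.82 ± 0.22 (adjusted p = 0.00220 over all 35556 probe sets).

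Socs1, which binds the kinase domain of JAKs and blocks it, was nearer to the threshold. It had 6.31, 6.64 and 6.88 on the dendritic arrays (probe set 10437668), against 5.54, 6.28 and 5.82 on the macrophage arrays. The populations did not overlap, but dendritic replicate 1 and macrophage replicate 2 were almost level. The difference was 0.73 ± 0.21, or 1.66-fold (adjusted p = 0.0395), and the call was lost on leaving out replicate 2 (0.111) or 3 (0.141) of the dendritic population, or replicate 1 (0.111) or 3 (0.116) of the macrophage population. It was also lost when all probe sets were tested (0.0959), within 0.0103 to 0.141 over 16 alternatives.

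Cish, the classical STAT5 target whose window is printed above, varied more between replicates than between populations. It had 7.26, 8.77 and 8.77 on the dendritic arrays (probe set 10588577), against 5.92, 8.87 and 8.07 on the macrophage arrays. Replicate 1 was far below the others in both populations: relative to the mean of replicates 2 and 3 it stood at -1.503 in the dendritic and -2.551 in the macrophage population. The highest value of all was that of macrophage replicate 2. The difference of 0.65 ± 0.69 was not called (adjusted p = 0.653, 95% interval -0.92 to 2.21). It was -0.20 without macrophage replicate 1, 1.27 without macrophage replicate 2 and 1.15 without dendritic replicate 1, and without replicate 1 of both populations it was 0.30 (adjusted p = 0.454; 0.104 to 0.880 over 16 alternatives). Of the 16 alternatives the one without macrophage replicate 1 gave Cish a negative difference.

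Socs3, the inhibitor induced through STAT3, had 5.69, 6.30 and 6.76 on the dendritic arrays (probe set 10393449), against 5.86, 6.58 and 6.44 on the macrophage arrays. The values overlapped throughout, and the difference of -0.039 ± 0.28 was not called (adjusted p = 0.963). Its 95% interval ran from -0.67 to 0.59, and the differences measured for the 6 called genes lie outside it. However, the 95% intervals of Socs1 (0.24 to 1.21), Pim1 (0.23 to 1.19) and Stat5a (0.55 to 1.43) overlap that of Socs3, while those of Jak2, Socs2 and Stat3 do not. The dimmer Socs3 probe set (10383010) gave -0.25 ± 0.27 (adjusted p = 0.710 over all probe sets). The sign for the brighter one turned when the arrays were scaled again (0.011 after quantile normalization, 0.015 with 75th percentile centring).

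Pim1, the serine/threonine kinase that acts downstream of STAT5 in cell survival, had 8.60, 8.88 and 8.98 on the dendritic arrays (probe set 10443527), against 7.64, 8.45 and 8.25 on the macrophage arrays. The dendritic values were all higher, with dendritic replicate 1 close to macrophage replicate 2. The difference was 0.71 ± 0.21, or 1.64-fold (adjusted p = 0.0420). The call was lost on leaving out replicate 2 (0.124) or 3 (0.138) of the dendritic population, or replicate 1 (0.0879) or 3 (0.0729) of the macrophage population, as well as after quantile normalization (0.0664) and when all probe sets were tested (0.0998). Over 16 alternatives its adjusted p lay between 0.00642 and 0.138.

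**Figure D2:**
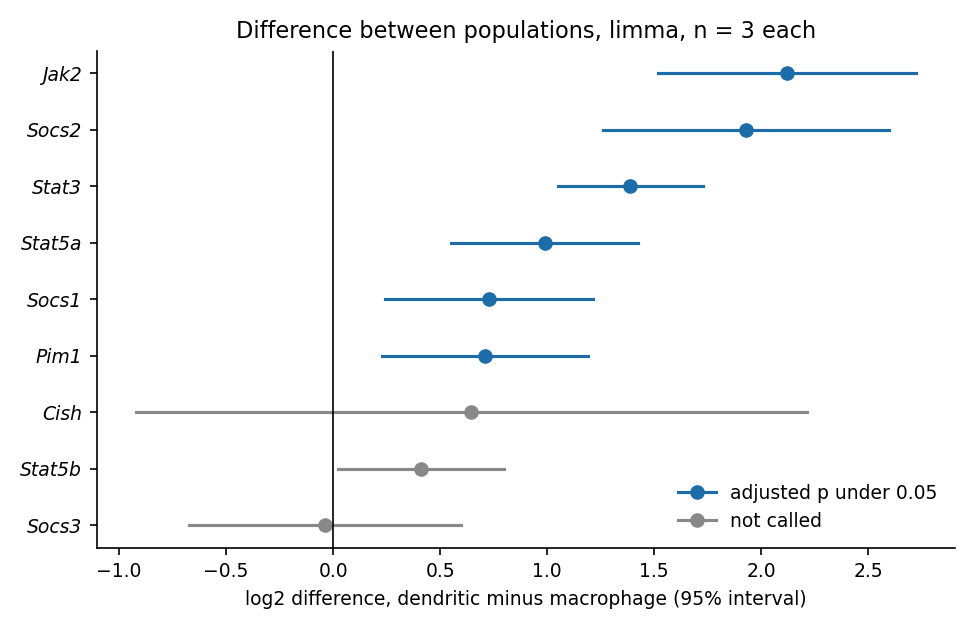
Log2 difference between the dendritic and the macrophage population (x axis) for each of the 9 genes, with the 95% interval from limma as a line. Blue points were called and grey points were not. The intervals of Jak2, Socs2 and Stat3 lie above 1, and those of Cish and Socs3 include 0.

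Where arrays of the same replicate number were set against each other, 7 of the 9 genes were higher in the dendritic array at all 3 numbers, as were 29.1% of all genes. For Jak2 the differences were 2.86, 1.71 and 1.79 at numbers 1, 2 and 3. For Socs2 they were 2.54, 1.42 and 1.83. For both genes number 1, with the low macrophage replicate 1, gave the largest difference. Stat5b was small but even, at 0.39, 0.48 and 0.36. Cish gave 1.34, -0.11 and 0.70, and Socs3 gave -0.16, -0.28 and 0.32, with mixed signs in both. Replicate 1 was the lowest array of both populations for 7 of the 9 genes (all except Jak2 and Stat3), a count made after the values were seen, and for 29.5% of all genes. The neutrophil markers given above were high on the same arrays, and their part in these values was not tested.

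**Figure D3:**
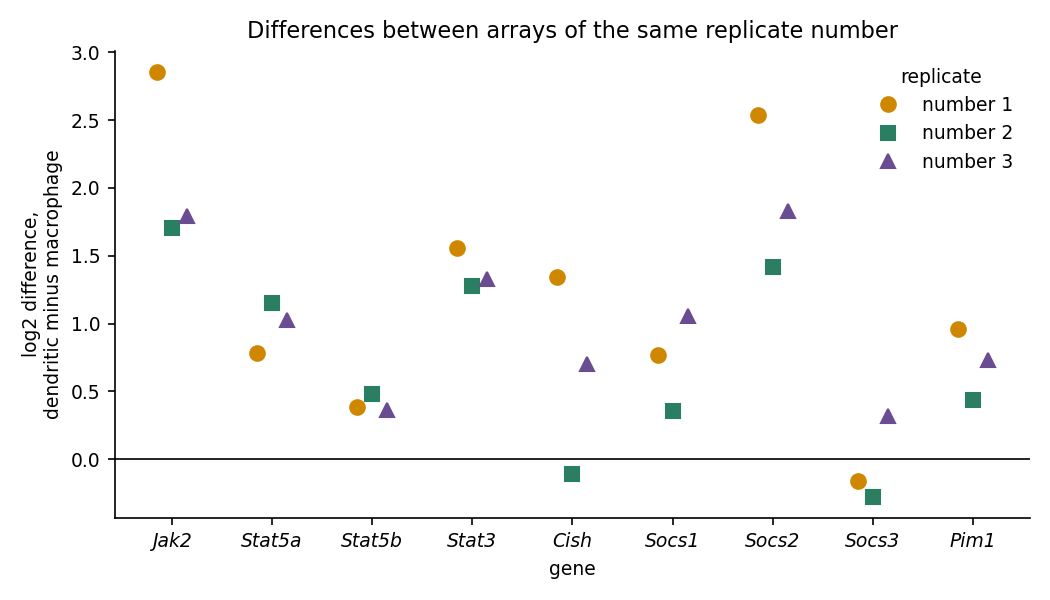
Log2 difference between the dendritic and the macrophage array of the same replicate number (y axis) for the 9 genes, with 1 marker per number. Jak2, Stat5a, Stat5b, Stat3, Socs1, Socs2 and Pim1 lie above 0 at all numbers, and Cish and Socs3 lie on both sides of it.

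Whether related genes differed unequally was read from the difference between them within each array, for 6 pairs. With 3 arrays against 3 the exact permutation test (2-sided) cannot go below p = 0.1, so no pair could be called. Stat5a minus Stat5b was 0.38, 0.71 and 0.55 on the dendritic arrays, against -0.018, 0.032 and -0.11 on the macrophage arrays. The values did not overlap, and the populations differed in this measure by 0.58 (95% interval 0.29 to 0.87, exact p = 0.1, 0.15 adjusted over the 6 pairs). Socs2 minus Socs3 differed by 1.97 (95% interval 1.11 to 2.82, exact p = 0.1, adjusted 0.15), with values of 4.45, 4.07 and 3.59 on the dendritic arrays, against 1.74, 2.37 and 2.08 on the macrophage arrays. Socs1 minus Socs3 differed by 0.77 (0.27 to 1.27, exact p = 0.1, adjusted 0.15). Jak2 minus Jak1, its widely expressed relative, differed by 2.31 (1.08 to 3.54, exact p = 0.1, adjusted 0.15), and the values of these pairs did not overlap either. Stat5a minus Stat3 differed by -0.40 (-1.44 to 0.63, exact p = 0.4, adjusted 0.4) and Cish minus Socs2 by -1.28 (-3.08 to 0.51, exact p = 0.3, adjusted 0.36), and in both pairs the populations overlapped. Differences within an array describe unequal change between 2 genes, which could not be called for any pair. They do not show that either gene stayed the same.

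Around the 9 genes, 74 other genes of the pathway were measured in 7 lists, of which 20 were called higher and 13 lower. Over all genes, dim ones included, 9.98% were called higher and 11.6% lower. Among receptors and ligands that work through JAK2, none of 10 was higher and 1 was lower. This was Csf2ra, the alpha chain that binds GM-CSF, with 8.06, 7.43 and 7.45 on the dendritic arrays, against 9.50, 9.52 and 9.37 on the macrophage arrays (-1.82 ± 0.18, adjusted p = 0.000103). The alpha chain and the kinase Jak2 thus differed in opposite directions. The common beta chain Csf2rb differed by 0.29 ± 0.15 (adjusted p = 0.248) and Csf2rb2, the mouse copy of it used by interleukin-3, by 0.24 ± 0.20 (adjusted p = 0.526), and neither was called. These copies are near-identical, so their probe sets may share signal and both are uncertain. The differences of the 9 uncalled genes in this list lay between 0.064 and 0.30. Il5ra, Ghr, Csf2, Il3 and Il5, named for their low values, lay between 2.37 and 3.91 on all arrays. This is below the array medians of 4.79 to 4.96, so the lack of a call for them says little about change.

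Of 7 other JAK, STAT and PIM genes 2 were called higher and none lower. Stat4, which transmits interleukin-12 signals, had the largest difference (6.43 ± 0.24, adjusted p = 4.81e-07), and the kinase Tyk2, which also serves the interleukin-12 receptor, was higher by 0.73 ± 0.15 (adjusted p = 0.00761). The uncalled genes of that list lay between -0.19 (Jak1) and 0.33 (Pim3), both named as the ends of the range. Among 8 further SOCS genes and parts of the ubiquitin ligase that SOCS proteins recruit, 1 was higher and 1 lower. Eloc, the elongin C that binds the SOCS box, was higher by 0.63 ± 0.12 (adjusted p = 0.00397). Socs6 was lower by a difference of -1.76 ± 0.25 (adjusted p = 0.000837), with 6.27, 5.68 and 5.59 on the dendritic arrays, against 7.78, 7.92 and 7.12 on the macrophage arrays.

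Of 12 other inhibitors of JAK-STAT signalling 5 were higher and 1 was lower. The ubiquitin ligase Cblb was higher by 3.44 ± 0.14 (adjusted p = 6.56e-07), with 10.80, 10.78 and 10.60 on the dendritic arrays, against 7.16, 7.21 and 7.49 on the macrophage arrays. Pias3, named for its binding to activated STAT3, was higher by 1.39 ± 0.14 and Sh2b3, the adaptor LNK that restrains JAK2, by 0.92 ± 0.14. The phosphatase Ptprc (CD45), which can dephosphorylate JAKs, was lower by a difference of -0.79 ± 0.15. The largest adjusted p of these 4 genes was 0.00540. Of 15 genes in the adaptor, RAS-MAPK and PI3K branches of the receptor, 3 were higher and 3 lower. The regulatory PI3K subunit Pik3r1 was higher by 1.84 ± 0.13, the kinase Map2k1 by 0.90 ± 0.19 and the catalytic subunit Pik3cb by 0.48 ± 0.13. The leukocyte subunit Pik3cd (-1.80 ± 0.27), the adaptor Sh2b2 (-0.96 ± 0.16) and the docking protein Gab2 (-0.71 ± 0.13) were lower. The call of Pik3cb (adjusted p = 0.0245) was lost without dendritic replicate 2 or 3 or macrophage replicate 2 or 3 (0.00445 to 0.132 over 16 alternatives), and the other 5 had adjusted p of at most 0.00881.

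Other known STAT5 targets formed the list with the highest median, 0.92, with 8 of 12 measured genes higher and 2 lower. The receptor chain Il2ra of interleukin-2 (5.39 ± 0.20), the cyclin Ccnd2 (3.69 ± 0.47) and the transcription factor Irf8 (2.23 ± 0.19) had the largest differences. Myc (-1.03 ± 0.17) and the survival gene Bcl2 (-0.57 ± 0.18) were lower. Of the 8 higher genes Irf8 is known in mice as a gene that STAT5 represses, as is Bcl6 (0.97 ± 0.13), which was named after its values were seen. The call of Bcl2 (adjusted p = 0.0495) was lost in 8 of 15 alternatives, among them each array left out except macrophage replicate 1 (0.00574 to 0.194). Its relative Bcl2l1, which was named after its values were seen, missed the threshold at 0.80 ± 0.25 (adjusted p = 0.0524). Receptors that signal through STAT3 had the lowest median, -0.51, with 5 of 10 lower and 1 higher. The G-CSF receptor Csf3r differed by -2.93 ± 0.39, the leptin receptor Lepr by -2.58 ± 0.21 and the interleukin-6 receptor Il6ra by -2.03 ± 0.23, while Il21r was higher by 0.88 ± 0.13 (adjusted p of at most 0.00106 for these 4). Neutrophils also express Csf3r, and its macrophage values were 8.86, 7.65 and 7.43, highest on replicate 1, as the neutrophil list was; the part of such cells in this value was not tested.

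**Figure D4:**
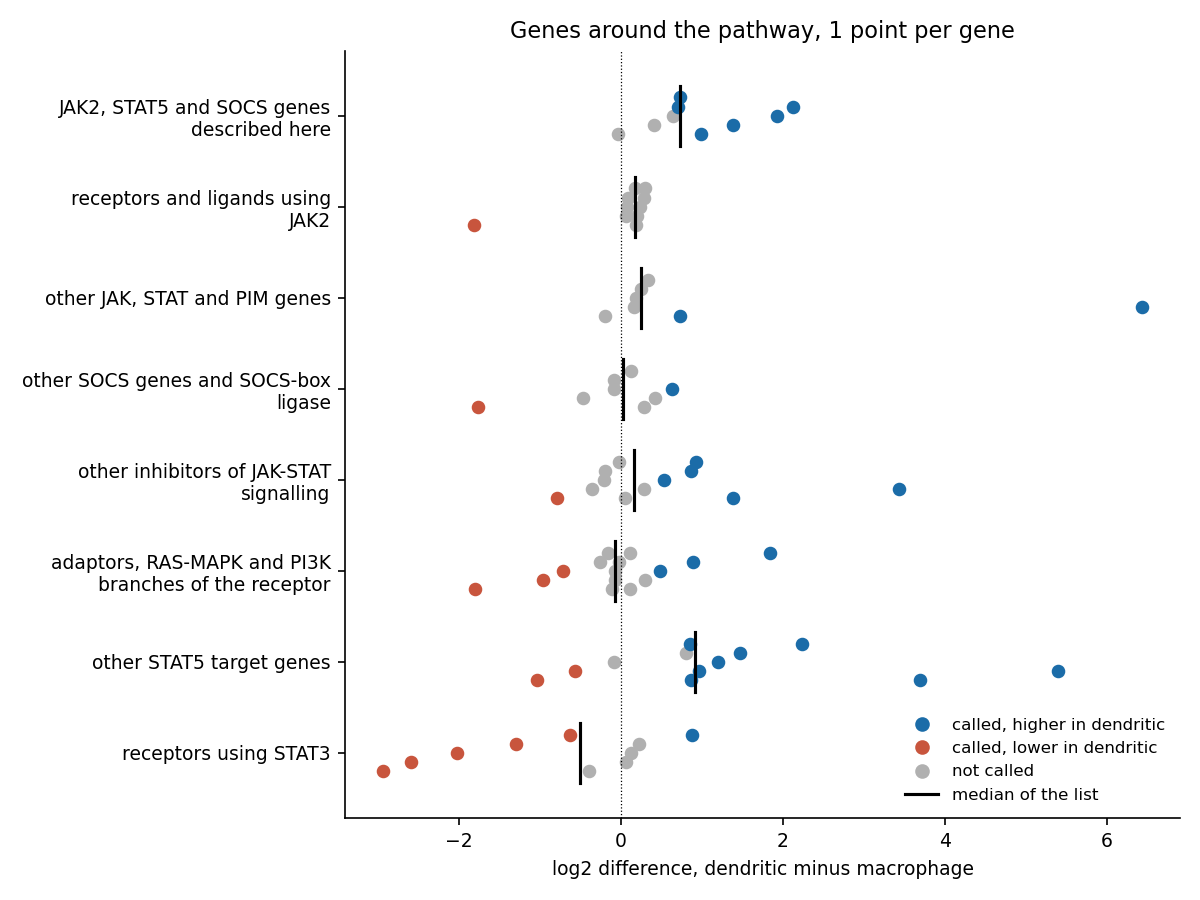
Log2 difference between the dendritic and the macrophage population (x axis) for the 9 genes (top row) and for 7 lists of genes around the pathway, with 1 point per gene and the list median as a black line. The medians run from -0.51 for receptors using STAT3 to 0.92 for other STAT5 targets, and Csf2ra is the one called gene among the receptors and ligands using JAK2.

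For each called gene, the genes with the most similar pattern were those with the highest Pearson r over the 6 arrays, given as a description. All these values of r share the population difference. Candidates were the genes tested, leaving out predicted genes (Gm numbers, Rik) and olfactory and vomeronasal receptors. Closest to Jak2 was Tcaf2 (r = 0.9986), to Stat3 Ilf2 (0.9991), to Stat5a Map3k10 (0.9965) and to Socs2 Btg1 (0.9930). Closest to Socs1 was Tlcd5 (0.9917) and to Pim1 Zc3h6 (0.9979). Second to Jak2 was Oosp1 (r = 0.9968), to Stat3 Rbpms2 (0.999), to Stat5a Ccnd2 (0.9952) and to Socs2 Cmtm6 (0.9928). Second to Socs1 was Slc9a5 (0.9916) and to Pim1 Pou4f1 (0.9972). Of all these similar genes only Ccnd2 was on a list around the pathway, that of STAT5 targets. Likeness of pattern did not mean likeness of size. Tcaf2 differed by 0.42 ± 0.12 beside 2.12 for Jak2, and Tlcd5 by 0.17 ± 0.12 and Zc3h6 by 0.44 ± 0.17. Tlcd5, Zc3h6 and Slc9a5 were not called (adjusted p = 0.422, 0.108 and 0.0650). The call of Tcaf2 (adjusted p = 0.0353) held in 6 of 14 alternatives (0.0224 to 0.117) and was lost with each single array left out. The call of Pou4f1 (adjusted p = 0.0428) held in 9 of 14 alternatives (0.00878 to 0.132). Tcaf2 (3.46 to 4.03), Tlcd5 (3.86 to 4.18) and Pou4f1 (3.20 to 4.33) lay below the array medians of 4.79 to 4.96 on all arrays.

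**Figure D5:**
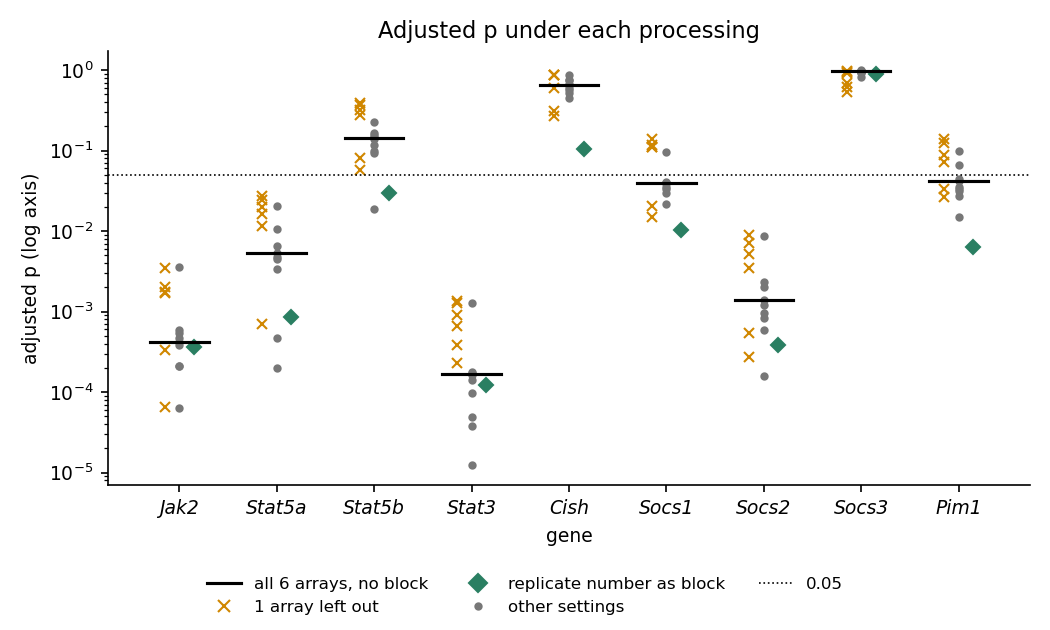
Adjusted p (y axis, log scale) of the 9 genes under each processing alternative, with the value from all 6 arrays as a black bar, settings with 1 array left out as crosses, the replicate block as a diamond and other settings as dots. Jak2, Stat5a, Stat3 and Socs2 lie under the dotted line at 0.05 in every setting, Socs1 and Pim1 lie on both sides of it, and Cish and Socs3 stay above it.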

How the data were processed

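Expression was measured on 6 arrays, 3 dendritic and 3 macrophage, grouped by the labels. The files hold log2 values of 35556 probe sets that the authors deposited, and the submitters' processing notes name RMA and R 3.0.2 for them. RMA subtracts background, equalizes the arrays by quantiles and combines probes, and it compresses differences of dim probe sets. There are no detection calls, and precision is limited by the number of arrays. The platform's gene table gave 1 symbol to 21789 probe sets, several to 1621 and none to 12146. Of 87 list genes 74 had a single-symbol probe set, and the others were not analysed here. The test was limma 3.58.1 in R 4.3.3 (lmFit, eBayes, 2-sided, population as the only term), adjusted over 19938 genes and tested on simulated data. Once population means were removed, arrays sharing a number correlated at 0.385, 0.147 and 0.272, each above 0.1. Of the unlike numbers, dendritic 2 with macrophage 3 gave 0.155 and dendritic 3 with macrophage 2 gave 0.128, and the others were negative. These values set number 1 apart more clearly than numbers 2 and 3. The main test therefore left the numbers in the titles out. They were used only in the blocked alternative and in the differences between arrays of the same number. Other alternatives were scaling, level filters, prior, array weights, probe set choice and leaving out arrays. Within-array differences used an exact permutation test. Sequences come from RefSeq, GRCm38.p6. The genes and lists were chosen with earlier results of these data known. Named were the 9 genes, the GM-CSF receptor chains, up to 3 called genes per list and direction with the largest difference, and the 2 closest patterns to each called gene, 46 genes by this rule.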

Additional observations from a re-analysis of the deposited data

How the results depend on the processing

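Between 4 and 7 of the 9 genes were called higher, and none lower, over 16 alternatives. Jak2, Stat5a, Stat3 and Socs2 kept their direction and call in all 16, with differences of 1.75 to 2.36 for Jak2, 0.88 to 1.19 for Stat5a, 1.25 to 1.48 for Stat3 and 1.55 to 2.23 for Socs2. Stat5b became called in the fit with a replicate block (0.41, adjusted p = 0.0296) and with array weights (0.51, adjusted p = 0.0186), and ranged from 0.30 to 0.54 with 1 array left out. The block changed no other call among the 9 genes. Socs1 lost its call when all probe sets were tested (0.73), and ranged from 0.56 to 0.93 with 1 array left out. Pim1 lost its call on renewed quantile normalization (0.71) and when all probe sets were tested (0.71), and ranged from 0.47 to 0.88 with 1 array left out. Testing all probe sets adjusts over more features and also changes the SE, which for the same Socs2 probe set was 0.32 beside 0.29. Cish ranged from -0.20 to 1.27 with 1 array left out, negative only without macrophage replicate 1. Socs3 turned sign after quantile normalization (0.011), with 75th percentile centring (0.015), without both replicates numbered 1 (0.022, added after seeing the data) and within -0.29 to 0.24 with 1 array left out. For the turned signs and the lost calls the cause was not tested. The called list genes numbered 28 to 38 beside 33, and all genes called 3311 to 5901 beside 4312. With 75th percentile centring 2094 genes were higher and 2032 lower, beside 1990 and 2322. No within-array difference changed direction in 8 alternatives each.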
